A study of Mus musculus with 4 samples.

Results

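The genes described here are 30 genes of cholesterol synthesis and sterol regulation, given as a list and found by symbol among the 55401 genes of each table of mouse optic nerve RNA. They comprise 18 enzymes of the pathway and 12 genes that regulate, move, store or clear sterols. RNA was measured in 2 libraries of genotype Dor WT and in another 2 of genotype Dor cKO, where cKO is read as a conditional knockout; Dor is a synonym of Trp53inp2. No other allele, Cre driver, treatment, strain, sex, age or number of animals per library was given in the sources used here. What looks like an age stands in the names of the Dor WT tables but not in those of Dor cKO, so any difference in age and the genotype cannot be told apart.

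Cholesterol is built from acetyl-CoA through mevalonate, farnesyl diphosphate, squalene and lanosterol, and the brain and optic nerve make their own because blood lipoproteins do not cross the vessel wall there. Myelin is rich in cholesterol, and oligodendrocytes that are making myelin carry out much of this synthesis, while astrocytes also make and export it. The genes of the pathway are switched on together by SREBP2 when membranes of the endoplasmic reticulum run low in sterol: SCAP escorts the SREBP precursor to the Golgi for cleavage, and the INSIG proteins hold it back. LXR receptors answer to oxysterols, which are oxidised sterols, and turn on genes of export.

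Many of these genes are known to share control, though Insig2 is not driven by SREBP in the same way. The start of 3 members is shown first, for Hmgcs1, the most abundant of the enzymes, and for the INSIG pair, whose members changed in opposite directions. Each window runs from 250 bases before to 50 bases after a start in RefSeq (GRCm38.p6) and is written 5′ to 3′ on the gene's strand. Capitals mark matches on either strand to 3 motifs: TCACNCCAC, a form of the SREBP element; CCAAT, the NF-Y box; and GGGCGG, the Sp1 box. Hmgcs1 lies at chr13:119690101-119690400 (plus strand), Insig1 at chr5:28071162-28071461 (plus strand), and the farthest upstream of 3 Insig2 windows at chr1:121332540-121332839 (minus strand).
Hmgcs1: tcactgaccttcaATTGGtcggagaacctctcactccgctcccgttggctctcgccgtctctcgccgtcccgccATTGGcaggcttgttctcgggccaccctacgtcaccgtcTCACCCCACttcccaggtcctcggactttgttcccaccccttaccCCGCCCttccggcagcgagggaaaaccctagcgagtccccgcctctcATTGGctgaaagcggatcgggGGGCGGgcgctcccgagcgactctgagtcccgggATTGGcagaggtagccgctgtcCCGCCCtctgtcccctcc
Insig1: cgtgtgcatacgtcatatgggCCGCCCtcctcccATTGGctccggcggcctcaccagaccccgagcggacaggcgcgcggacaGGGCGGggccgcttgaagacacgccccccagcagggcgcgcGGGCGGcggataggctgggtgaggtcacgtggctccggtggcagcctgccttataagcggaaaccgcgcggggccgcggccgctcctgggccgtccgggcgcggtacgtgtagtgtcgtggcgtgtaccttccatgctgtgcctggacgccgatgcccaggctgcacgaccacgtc
Insig2: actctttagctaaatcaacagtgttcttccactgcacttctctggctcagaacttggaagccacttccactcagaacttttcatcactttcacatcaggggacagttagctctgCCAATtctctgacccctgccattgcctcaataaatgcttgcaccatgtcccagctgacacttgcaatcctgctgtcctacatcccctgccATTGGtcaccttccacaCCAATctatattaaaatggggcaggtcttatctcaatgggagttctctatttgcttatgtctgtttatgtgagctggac
The Hmgcs1 window held 1 SREBP element, whose first base lies at -137 from the start, together with 4 CCAAT and 3 GGGCGG matches. Insig1 had 1 CCAAT and 3 GGGCGG matches, and the Insig2 window shown had 3 CCAAT matches and 0 of the others. The other 2 Insig2 windows each had 1 GGGCGG match and 0 of the others. Which Insig2 start the nerve uses was not tested. Windows were matched for 25 members. Of these 25 genes, 1 had TCACNCCAC in any of its windows, 21 had CCAAT and 22 had GGGCGG, against 1.44%, 41.1% and 38.2% of all 27025 genes with a window. Of all 32851 windows of 300 bases, 1.24%, 37.4% and 35.7% held the respective motif. TCACNCCAC is only a form of the SREBP element, and other forms were not searched. Its absence from a window therefore does not show that the window lacks such an element. These shares cover genes whether or not they were expressed in the nerve, and shares among expressed genes were not computed. No 2 different motifs overlapped among the 100 matches in the members' windows, and a match is a string of letters, not a measured binding site.

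The enzymes of cholesterol synthesis were lower in Dor cKO from the first step to the last, by modest amounts, while the regulators split. Of the 30 genes, all of which passed the filter on low counts, 19 fell and 3 rose in Dor cKO at an edgeR adjusted p under 0.05, and 8 did not pass. Among all 16751 genes tested, 13.4% were called lower and 14.3% higher. The median log2 fold change (Dor cKO minus Dor WT) was -0.28 over the 30 genes and -0.0036 over all tested genes, whose middle 50% lay between -0.18 and 0.17. Of the 18 enzymes, 17 fell and 0 rose, with a median of -0.37; at an unadjusted p under 0.05, 18 were lower and 0 higher by edgeR, and 17 were lower and 0 higher by DESeq2, which called 13 of them after adjustment. Of the 12 other genes, 3 rose, 2 fell and the other 7 did not pass, and their median was 0.05. No member changed by 1.5-fold or more, a size that 4.90% of tested genes reached with a call. In the same libraries all 12 oligodendrocyte and myelin markers tested fell, with a median of -0.84; their part in the fall of the enzymes was not tested. In whole nerve, fewer cells of a type and less RNA per cell cannot be told apart.

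**Figure D1:**
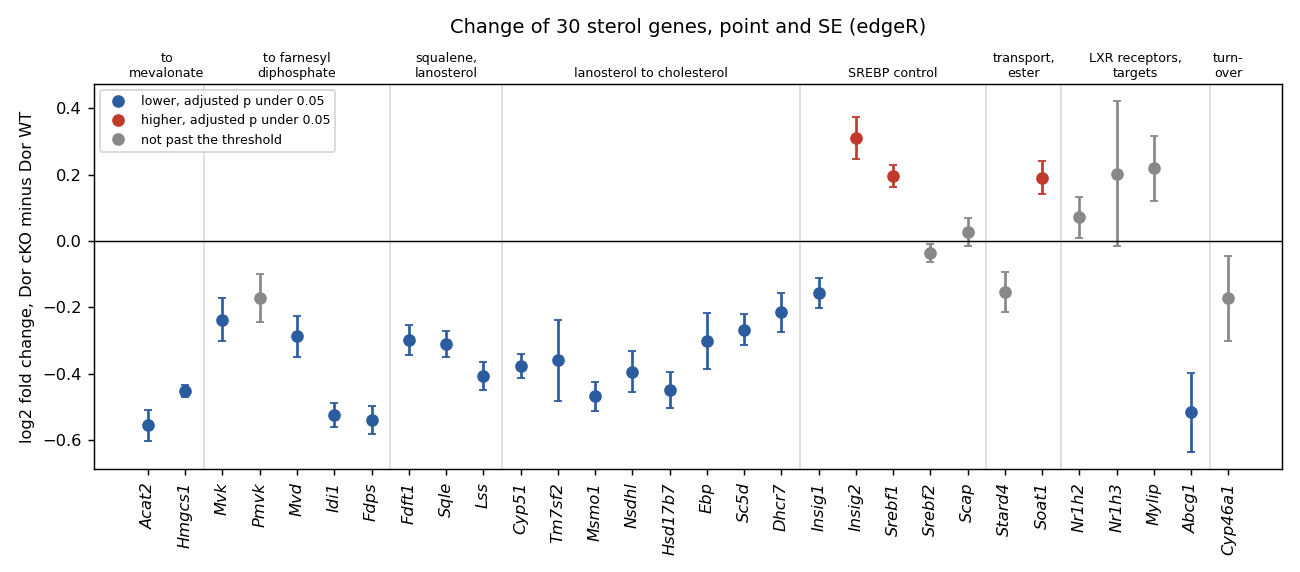
Log2 fold change (Dor cKO minus Dor WT, vertical axis) with its SE for each of the 30 genes, ordered along the pathway, blue where lower and red where higher at an edgeR adjusted p under 0.05 and grey otherwise. All 18 enzymes lie below 0, from -0.56 for Acat2 to -0.17 for Pmvk, and Insig2, Srebf1 and Soat1 are the 3 red points above it.

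Summed over the 18 enzymes, the level was 2685 and 2665 CPM (counts relative to TMM-scaled library size) in the Dor WT pair against 2017 and 1994 in the Dor cKO pair, 0.750 of the Dor WT level. The 12 other genes summed to 934 and 917 CPM in the Dor WT pair against 952 and 944 in the Dor cKO pair. The groups did not overlap in either sum. Libraries of a group lay close together beside the gap between groups for the enzymes. For the 12 other genes, the nearest libraries of the groups lay closer together than the Dor WT pair did. With 2 libraries against 2, an exact two-sided permutation test on such a sum cannot give a p under 0.333, so single sums and ratios are given as values. Member by member, 22 of 30 had both Dor cKO libraries below both Dor WT libraries and 4 had them above, where 30.5% and 30.2% of all tested genes did so. All 18 enzymes were among the 22. The labels do not say that the 2 libraries of a group came from separate animals, so the p-values measure only the spread between these libraries, which may be technical.

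**Figure D2:**
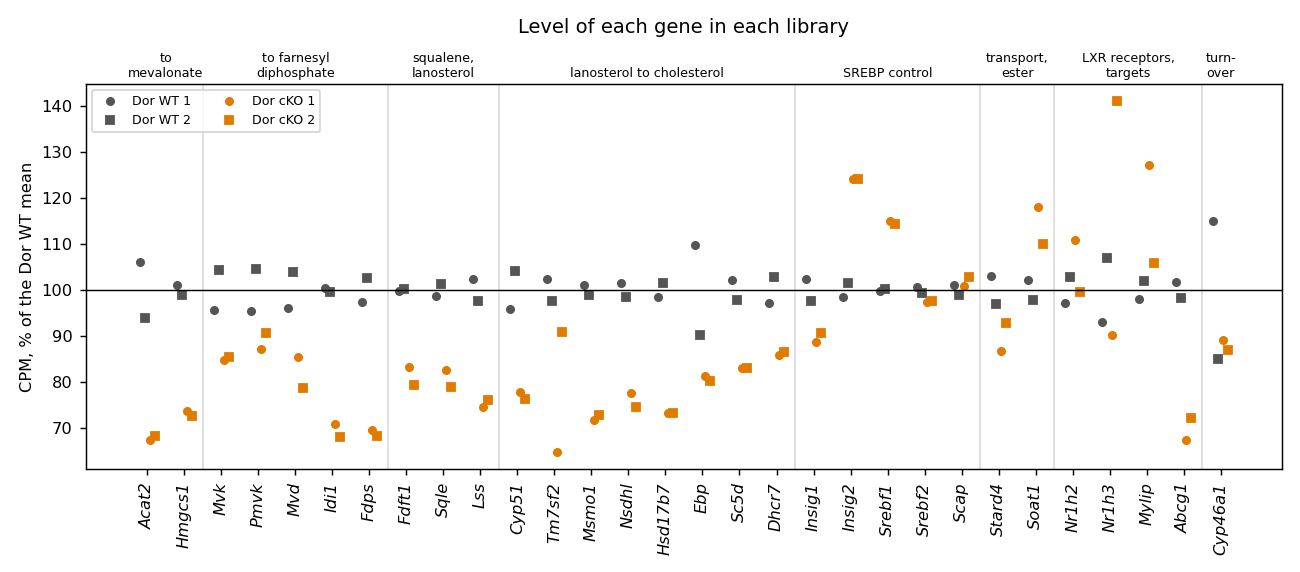
CPM of each gene in each library (vertical axis, % of the Dor WT mean), with Dor WT in grey and Dor cKO in orange, replicate 1 as circles and replicate 2 as squares. The Dor cKO libraries lie below those of Dor WT for every enzyme, the INSIG pair moves apart, and Tm7sf2, Ebp, Mylip, Nr1h3 and Cyp46a1 show wide gaps between libraries of a group.

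The first steps make mevalonate. Acat2, the cytosolic thiolase that joins acetyl-CoA units, had 166 and 147 CPM in the Dor WT pair against 106 and 107 in the Dor cKO pair. The Dor WT libraries differed from each other by more than the Dor cKO pair did, yet both stood clear of it. Acat2 fell by 0.56 (SE 0.05, edgeR adjusted p = 5.38e-09), which is 1.47-fold, and by 0.47 without Dor WT replicate 1, its high library. Hmgcs1 (chromosome 13, 119690379 to 119708260, GRCm38), which condenses acetoacetyl-CoA to HMG-CoA, had 1016 and 993 CPM in the Dor WT pair against 739.7 and 729 in the Dor cKO pair. It fell by 0.45 (SE 0.02, edgeR adjusted p = 1.01e-17).

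From mevalonate to farnesyl diphosphate, 4 of 5 enzymes fell, with a median of -0.29, and the kinases had the smallest values. Mvk, the first mevalonate kinase, had 48.9 and 53.4 CPM in the Dor WT pair against 43.3 and 43.7 in the Dor cKO pair and fell by 0.24 (SE 0.07, edgeR adjusted p = 0.00612). Mvk did not pass once Dor WT replicate 2 was left out (-0.17, adjusted p = 0.11), nor with DESeq2 (adjusted p = 0.0673). Pmvk, which adds the next phosphate, had 37.5 and 41.2 CPM in the Dor WT pair against 34.3 and 35.7 in the Dor cKO pair. Its groups did not overlap, but its change of -0.17 (SE 0.07) did not pass (edgeR adjusted p = 0.0806). Over single libraries left out, Pmvk ranged from -0.23 (adjusted p = 0.0288, Dor WT replicate 1 left out) to -0.10 (adjusted p = 0.461, Dor WT replicate 2 left out). Scaling Pmvk by total counts gave an adjusted p of 0.048, removing a GC and length trend gave 0.0194, and DESeq2 gave 0.325. Mvd, the decarboxylase that makes isopentenyl diphosphate, had 57.6 and 62.3 CPM in the Dor WT pair against 51.2 and 47.2 in the Dor cKO pair and fell by 0.29 (SE 0.06).

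Larger falls were measured for the last enzymes of this arm. Idi1, which isomerises isopentenyl diphosphate, had 179 and 177 CPM in the Dor WT pair against 126 and 121 in the Dor cKO pair, and fell by 0.53 (SE 0.04, edgeR adjusted p = 1e-12). Fdps, which joins the isoprene units into farnesyl diphosphate, had 134 and 141 CPM in the Dor WT pair against 95.7 and 93.9 in the Dor cKO pair, and fell by 0.54 (SE 0.04, edgeR adjusted p = 1.48e-11). For both genes the gap between groups was several times the gap within either group.

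The enzymes that make squalene and close its rings fell in 3 of 3. Fdft1, squalene synthase and the branch point to sterols, had 104 and 105 CPM in the Dor WT pair against 87.1 and 83.0 in the Dor cKO pair and fell by 0.30 (SE 0.05). Sqle, the oxygen-using squalene epoxidase, had 133 and 137 CPM in the Dor WT pair against 112 and 106 in the Dor cKO pair and fell by 0.31 (SE 0.04, edgeR adjusted p = 3.91e-07). Lss, which forms lanosterol, had 130 and 124 CPM in the Dor WT pair against 95.0 and 96.9 in the Dor cKO pair and fell by 0.41 (SE 0.04, edgeR adjusted p = 6.00e-09).

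From lanosterol to cholesterol, all 8 enzymes fell, with a median of -0.37, and the falls ran from 0.22 to 0.47. Cyp51, the lanosterol demethylase, had 204 and 222 CPM in the Dor WT pair against 166 and 163 in the Dor cKO pair. Msmo1, the methylsterol oxidase that follows, had 115 and 113 CPM in the Dor WT pair against 81.8 and 82.9 in the Dor cKO pair and fell by 0.47 (SE 0.04, edgeR adjusted p = 1.08e-09). Hsd17b7, a ketosteroid reductase of the same demethylation complex, had 73.9 and 76.1 CPM in the Dor WT pair against 55.0 and 54.9 in the Dor cKO pair and fell by 0.45 (SE 0.05, edgeR adjusted p = 1.37e-07). Its partner Nsdhl, the sterol dehydrogenase, had 58.1 and 56.4 CPM in the Dor WT pair against 44.4 and 42.7 in the Dor cKO pair and fell by 0.39 (SE 0.06). Cyp51 itself fell by 0.38 (SE 0.04), so the 4 members that take methyl groups off lanosterol fell by 0.38 to 0.47.

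The remaining late enzymes fell by less or with more scatter. Tm7sf2, a sterol reductase that acts after Cyp51, had 28.6 and 27.3 CPM in the Dor WT pair against 18.1 and 25.4 in the Dor cKO pair, so 1 library set much of its fall of 0.36 (SE 0.12, edgeR adjusted p = 0.0417). Without Dor cKO replicate 1 its change was -0.14 (adjusted p = 0.453) and without replicate 2 it was -0.62 (adjusted p = 8.48e-05), and it did not pass either with Dor WT replicate 1 left out (adjusted p = 0.293) or replicate 2 left out (adjusted p = 0.187). Ebp, the sterol isomerase, had 40.0 and 32.8 CPM in the Dor WT pair against 29.6 and 29.2 in the Dor cKO pair and fell by 0.30 (SE 0.08, edgeR adjusted p = 0.00709). Without Dor WT replicate 1, its high library, the change was -0.16 (adjusted p = 0.223), and leaving out Dor cKO replicate 2 gave an adjusted p of 0.0531.

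The last desaturation and reduction steps showed the same direction. Sc5d, a sterol desaturase, had 99.2 and 94.8 CPM in the Dor WT pair against 80.5 and 80.5 in the Dor cKO pair and fell by 0.27 (SE 0.05, edgeR adjusted p = 4.67e-05). Dhcr7, the reductase that acts on 7-dehydrocholesterol, had 58.4 and 61.7 CPM in the Dor WT pair against 51.6 and 52.0 in the Dor cKO pair and fell by 0.22 (SE 0.06, edgeR adjusted p = 0.00632), the smallest fall among called enzymes. Leaving out Dor WT replicate 2 ended that call (-0.17, adjusted p = 0.0722). Leaving out Dor cKO replicate 1 did so too (-0.21, adjusted p = 0.0519), as did DESeq2 for Dhcr7 (adjusted p = 0.0661), Ebp (adjusted p = 0.0631) and Tm7sf2 (adjusted p = 0.0881).

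Among the genes that control SREBP, the INSIG pair changed in opposite directions. Insig1, itself a classic SREBP target, had 106 and 101 CPM in the Dor WT pair against 91.7 and 93.7 in the Dor cKO pair and fell by 0.16 (SE 0.04, edgeR adjusted p = 0.00807). It did not pass once Dor WT replicate 1 was left out (-0.12, adjusted p = 0.0746), with Dor cKO replicate 1 left out (-0.14, adjusted p = 0.0839) or by DESeq2 (adjusted p = 0.0819). Insig2, which is not driven by SREBP in the same way, had 43.6 and 44.9 CPM in the Dor WT pair against 55.0 and 54.9 in the Dor cKO pair and rose by 0.31 (SE 0.06, edgeR adjusted p = 2.44e-04). The rise of Insig2 did not pass with limma on TPM (0.32, adjusted p = 0.125) or with the coefficient of biological variation fixed at 0.1 (adjusted p = 0.203). On the TPM scale, which is per length, the ratio of Insig1 to Insig2 was 1.31 and 1.05 in the Dor WT pair against 0.805 and 0.858 in the Dor cKO pair. Insig1 was thus the more abundant of the pair in both Dor WT libraries and the less abundant in both Dor cKO libraries.

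Of the SREBP genes, 1 rose and the other did not pass. Srebf1, whose products favour fatty acid genes, had 149 and 150.0 CPM in the Dor WT pair against 172 and 171 in the Dor cKO pair and rose by 0.20 (SE 0.03, edgeR adjusted p = 2.85e-05). Srebf1 likewise did not pass with limma on TPM (0.15, adjusted p = 0.145) or at the fixed variation (adjusted p = 0.490). Srebf2, which encodes the main activator of cholesterol genes, had 267 and 264 CPM in the Dor WT pair against 259 and 259.6 in the Dor cKO pair, a change of -0.04 (SE 0.03, edgeR adjusted p = 0.353). Scap, the escort of both, had 106 and 104 CPM in the Dor WT pair against 106 and 108 in the Dor cKO pair, a change of 0.03 (SE 0.04, edgeR adjusted p = 0.711), with overlapping groups. On the TPM scale the ratio of Srebf1 to Srebf2 was 0.759 and 0.783 in the Dor WT pair against 0.893 and 0.904 in the Dor cKO pair. These counts are of whole genes and do not separate the Srebf1 isoforms or show SREBP cleavage.

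Of the genes of sterol transport and storage, 1 rose and the other did not pass. Stard4, a carrier that moves cholesterol between membranes, had 62.9 and 59.2 CPM in the Dor WT pair against 52.9 and 56.7 in the Dor cKO pair. Its change of -0.15 (SE 0.06) did not pass by edgeR (adjusted p = 0.0573). Stard4 passed with total count scaling (adjusted p = 0.0299), with the replicate number as a block (adjusted p = 0.0423) and once Dor WT replicate 2 was left out (-0.20, adjusted p = 0.0284). It was further from the threshold with a GC and length trend removed (-0.089, adjusted p = 0.319), once Dor cKO replicate 1 was left out (-0.10, adjusted p = 0.394) and by DESeq2 (adjusted p = 0.249). Soat1, which esterifies cholesterol for storage, had 85.1 and 81.4 CPM in the Dor WT pair against 98.3 and 91.7 in the Dor cKO pair and rose by 0.19 (SE 0.05, edgeR adjusted p = 0.00323). Soat1 did not pass once Dor cKO replicate 1 was left out (0.14, adjusted p = 0.114), and on the TPM scale its change was -0.17 (limma adjusted p = 0.582).

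Of the LXR receptors and their targets, 1 of 4 changed. Abcg1, a transporter that exports cholesterol and is an LXR target, had 16.8 and 16.3 CPM in the Dor WT pair against 11.1 and 11.9 in the Dor cKO pair and fell by 0.52 (SE 0.12, edgeR adjusted p = 0.00128), with a TPM change of -0.61 that did not pass (limma adjusted p = 0.0807). Mylip, a ubiquitin ligase for lipoprotein receptors and also an LXR target, had 20.3 and 21.1 CPM in the Dor WT pair against 26.3 and 21.9 in the Dor cKO pair. Its change of 0.22 (SE 0.10) did not pass (edgeR adjusted p = 0.105) and depended on the Dor cKO libraries: without replicate 1 of them it was 0.0799 (adjusted p = 0.737), and without replicate 2 it was 0.35 (adjusted p = 0.0291). The LXR beta gene Nr1h2 had 53.3 and 56.4 CPM in the Dor WT pair against 60.8 and 54.6 in the Dor cKO pair, a change of 0.07 (SE 0.06) that did not pass (edgeR adjusted p = 0.458). The LXR alpha gene Nr1h3 was the scarcest member by count, at 4.32 and 4.97 CPM in the Dor WT pair against 4.19 and 6.55 in the Dor cKO pair. Its change of 0.20 had an SE of 0.22 and turned to -0.15 without Dor cKO replicate 2. Per length, Nr1h2 exceeded Nr1h3 in every library, with TPM ratios of 12.5 and 10.2 in the Dor WT pair against 12.6 and 7.52 in the Dor cKO pair.

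Cyp46a1, the hydroxylase that neurons use to clear cholesterol, had 18.6 and 13.8 CPM in the Dor WT pair against 14.4 and 14.1 in the Dor cKO pair. The groups overlapped, and the change of -0.17 (SE 0.13) did not pass (edgeR adjusted p = 0.359). Its sign rested on Dor WT replicate 1: without it the change was 0.0496 (adjusted p = 0.861), and without Dor WT replicate 2 it was -0.38 (adjusted p = 0.0312).

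Levels of different genes can be compared only per length, in TPM. In Dor WT, Hmgcs1 stood highest at 485 ± 7.11 TPM (SD, n = 2), followed by Fdps at 204 ± 7.75, Acat2 at 118 ± 10.4, Srebf2 at 99.5 ± 0.424, Idi1 at 96.0 ± 1.34 and Msmo1 at 92.9 ± 0.792 TPM. Each of these lay above the next beyond the range of its libraries. From Insig1 at 63.8 ± 1.73 to Scap at 47.3 ± 2.72 TPM, 12 genes including Mvk, Mvd, Fdft1, Sc5d, Ebp and Lss formed a run in which every neighbour's range overlapped the next. Below them, Hsd17b7 was the scarcest enzyme at 27.2 ± 0.87 TPM, and the lowest members were Mylip at 10.7 ± 0.311, Abcg1 at 6.27 ± 0.976 and Nr1h3 at 4.81 ± 0.849 TPM.

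In Dor cKO, Hmgcs1 and Fdps kept the first places at 353 ± 0.587 and 136 ± 2.18 TPM. Srebf2 at 94.9 ± 2.62 and Srebf1 at 85.2 ± 1.63 TPM then stood above Acat2 at 79.8 ± 1.08 TPM, and Insig2, at 68.5 ± 2.35 TPM, had a range that overlapped that of Idi1 at 67.3 ± 3.63 TPM. Between the groups, 8 of 30 genes kept their rank, and 13 of 29 neighbouring pairs had overlapping ranges in Dor WT against 14 of 29 in Dor cKO. Hmgcs1 supplied 28.9% and 28.3% of the summed TPM of the 18 enzymes in the Dor WT pair against 27.54% and 27.95% in the Dor cKO pair. The summed TPM of the 7 enzymes up to farnesyl diphosphate was 1.77 and 1.76 times that of the 11 later enzymes in the Dor WT pair against 1.61 and 1.64 times in the Dor cKO pair. Without Hmgcs1 these ratios were 0.968 and 0.978 in the Dor WT pair against 0.8934 and 0.8996 in the Dor cKO pair, with both Dor cKO values below both Dor WT values in either form. The median log2 fold change was -0.45 for the early enzymes and -0.36 for the later ones. The early enzymes were mixed, as Acat2, Hmgcs1, Idi1 and Fdps fell by 0.45 to 0.56. Mvk, Pmvk and Mvd changed by -0.24, -0.17 and -0.29, each less than the later median.

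**Figure D3:**
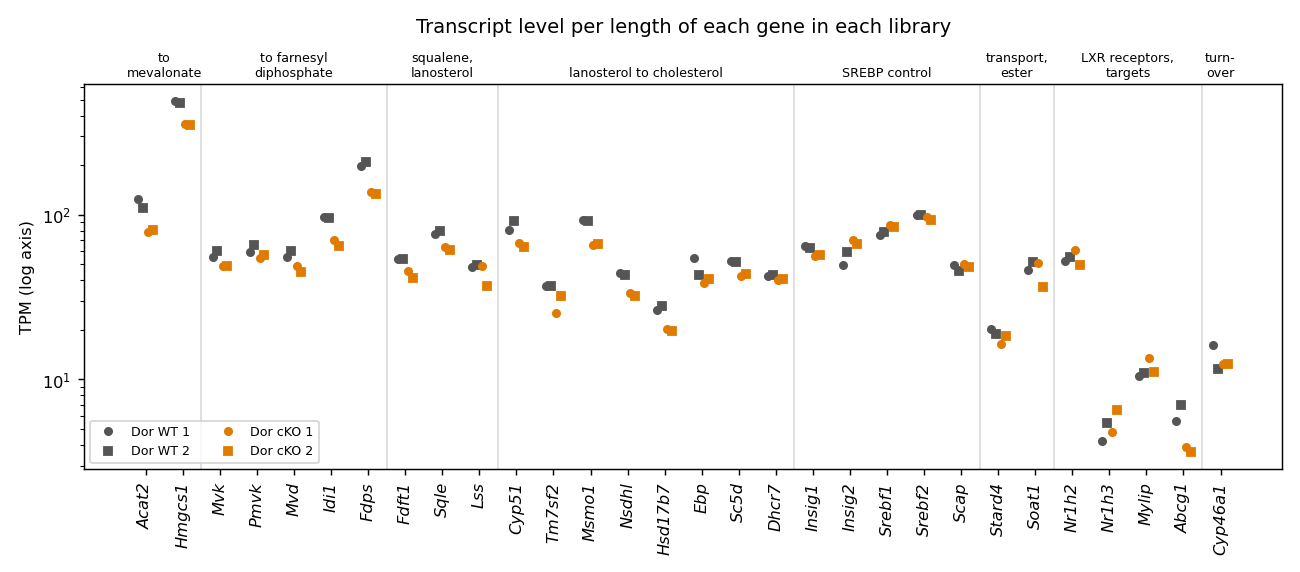
Deposited TPM (log axis) of each gene in each library, with Dor WT in grey and Dor cKO in orange, ordered along the pathway. Hmgcs1 stands above all other members in all 4 libraries, between 353 and 490 TPM, and Nr1h3 and Abcg1 lie lowest.

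Counts and TPM gave like changes for most members and unlike ones for a few, where the mean transcript length that RSEM assigned to the gene moved. TPM divides by that length, which is a mean over the gene's isoforms weighted by their estimated abundance. For Soat1 it was 2936 and 2556 bases in the Dor WT pair against 3021 and 3860 in the Dor cKO pair, and the TPM values were 46.1 and 51.5 in the Dor WT pair against 51.0 and 36.5 in the Dor cKO pair. The low TPM and the long length fell in the same library, Dor cKO replicate 2. For Lss the length was 4175 and 3924 bases in the Dor WT pair against 3039 and 4037 in the Dor cKO pair, and its TPM change was -0.20 (limma adjusted p = 0.449) against -0.41 by counts. The length stood apart in Dor cKO replicate 1, which by TPM (48.9) lay among the Dor WT values of 48.2 and 49.3, above Dor cKO replicate 2 (36.8). For Dhcr7 the groups did not overlap, at 2239 and 2335 bases in the Dor WT pair against 2091 and 2078 in the Dor cKO pair, and its TPM change was -0.08 (limma adjusted p = 0.455). Whether isoform use changed for these genes was not tested.

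**Figure D4:**
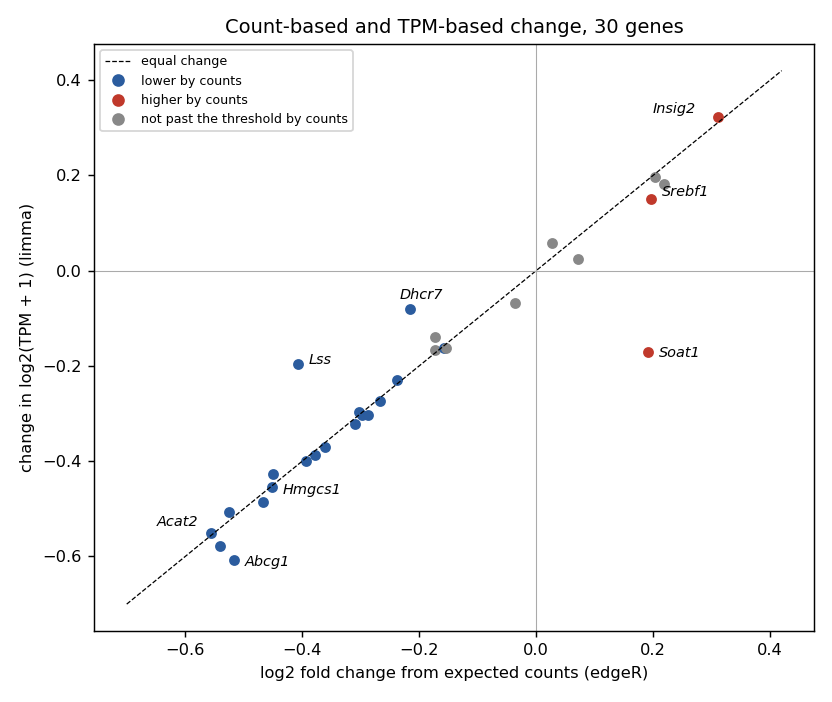
Change in log2(TPM + 1) from the deposited TPM (vertical axis, limma) against log2 fold change from expected counts (horizontal axis, edgeR) for the 30 genes, with the dashed line marking equal change. Most points lie along the line, while Lss and Dhcr7 lie above it, Soat1 falls from 0.19 to -0.17, and all 18 enzymes lie below 0 on both axes.

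The assignment of reads that fit more than 1 gene added little uncertainty. The posterior standard deviation of the count that RSEM gives was 0 for 22 members and at most 0.268% of the count for the others. Exons of 7 members overlap a gene on the opposite strand, among them 774 bases shared by Fdft1 with Ctsb, 557 bases shared by Hmgcs1 with Gm48342 and 109 bases shared by Srebf1 with Rai1. The exons of 4 members overlap a gene on the same strand, with 1124 bases shared by Fdps with Gm43738. The library kit keeps strand, but no source used here states whether counting used it, so reads from such overlaps cannot be assigned with certainty.

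Another 41 genes of sterol metabolism that are not members, of which 39 passed the filter on low counts, moved both ways: 6 rose, 4 fell and the other 29 did not pass, and their median log2 fold change was 0.06. Over all tested genes 14.3% rose and 13.4% fell, shares close to these. Synthesis enzymes and branches among them had 2 that fell and 1 that rose of 8 tested. The SREBP proteases went apart, as Mbtps1, the first to cut, rose by 0.22 (SE 0.03, edgeR adjusted p = 4.80e-07) and Mbtps2, the next, fell by 0.28 (SE 0.09, edgeR adjusted p = 0.016). Pgrmc1, a haem protein that binds P450 enzymes, rose by 0.34 (SE 0.02), the sterol carrier gene Stard5 by 0.53 (SE 0.16) and the phospholipid remodelling gene Lpcat3, an LXR target, by 0.19 (SE 0.06). Of the 6 genes for uptake and lysosomal release, 1 fell and 0 rose by edgeR.

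Total expected counts ran from 17263820 to 21595825 per library, and members had between 75 and 21561 counts in a library. Trp53inp2, the targeted gene, fell by 0.36 (SE 0.04, edgeR adjusted p = 2.73e-08), with 138 and 134 CPM in the Dor WT pair against 105 and 107 in the Dor cKO pair, but not by limma on TPM (adjusted p = 0.078) or with the coefficient of biological variation fixed at 0.1 (adjusted p = 0.111). Counts over the whole gene and the whole nerve cannot check a deletion that affects only part of the cells or of the gene. Oligodendrocyte and myelin markers were abundant and moved with the enzymes, and no marker of any list was at 0 in all 4 libraries. Of 12 such markers, 12 fell, by 0.45 to 1.53 with a median of -0.84, and their summed level was 25354 and 25286 CPM in the Dor WT pair against 15096 and 15003 in the Dor cKO pair; Mbp fell by 0.73 (SE 0.01). Of 5 precursor markers 4 fell, though Pdgfra by only 0.07, while Cspg4, at -0.11, did not pass; of 8 astrocyte markers 7 rose and 1 fell, of 8 microglia and macrophage markers 5 rose and 1 fell, and of 7 fibroblast and meningeal markers 7 rose. Of 7 endothelial and mural markers 3 rose and 1 fell, and of 9 neuron markers 2 fell and 1 rose. The most abundant or lowest-p markers changed by -1.11 for Bcas1 (in the precursor list, and known from newly forming oligodendrocytes), 0.10 for Gfap and 0.38 for Gja1 (astrocyte), 0.34 for Csf1r and 0.49 for Mrc1 (microglia and macrophage), 0.41 for Cdh5 (endothelial), 0.45 for Igf2 (meningeal), -0.42 for Map2 (neuron) and -2.36 for Chga (secretory), each past the edgeR threshold. Map2 fell by more than the neuron list as a whole, whose median was -0.07 and of whose 9 markers 6 did not pass. Pituitary and secretory markers fell in 7 of 7 tested. Their sum was 173 and 173 CPM in the Dor WT pair against 45.1 and 46.5 in the Dor cKO pair. Of this, the secretory gene Chga held 87.3 and 90.4 CPM in the Dor WT pair against 17.0 and 17.8 in the Dor cKO pair. Cga, a pituitary hormone gene that does not belong to the nerve, was at 15.8 and 17.3 CPM in the Dor WT pair. It had 0 counts in either Dor cKO library.

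No member fell by as much as the median oligodendrocyte marker. Taken against the mean log2 CPM of the 12 markers in the same library, all 30 members were higher in both Dor cKO libraries than in both Dor WT libraries, as were 92.9% of all tested genes. Among the members this distance rose least for Acat2, by 0.39, for Fdps, by 0.41, for Idi1, by 0.42, and for Abcg1, by 0.43, and most for Insig2, by 1.26. The part of the shifts in cell type markers and in pituitary genes in the changes of the sterol genes was not tested.

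**Figure D5:**
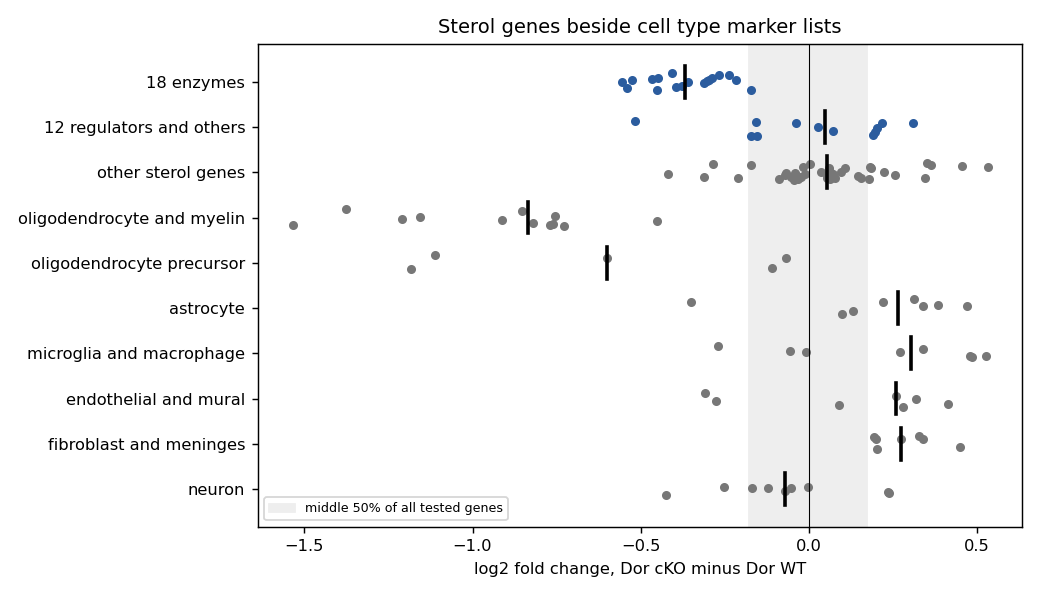
Log2 fold change (horizontal axis, Dor cKO minus Dor WT) of each tested gene of the 18 enzymes, the 12 other members, the other sterol genes and 7 marker lists, with a black bar at each list's median and a grey band over the middle 50% of all tested genes; the pituitary list is left out for scale. The enzymes' median of -0.37 lies between that of the oligodendrocyte markers, -0.84, and the grey band, which holds 1 enzyme, Pmvk.

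How many of these calls held differed between settings, several of which change the measure, the test or the genes tested together. Acat2, Hmgcs1, Idi1, Fdps, Msmo1 and Hsd17b7 were called lower under all 15 settings tried, and all 18 enzymes were below 0 in each. With limma on log2(TPM + 1), 8 members fell, against 4.31% of all tested genes, and 0 rose, against 3.98%, with 2 higher at an unadjusted p under 0.05. With the coefficient of biological variation fixed at 0.1 instead of the estimated 0.0348, 7 fell, against 5.32% of tested genes, and 0 rose, against 4.20%, with 1 higher at an unadjusted p under 0.05. By DESeq2, 14 fell and 3 rose, against 9.14% and 10.2% of tested genes. Under the other scalings, filters and models, 19 to 21 fell and 3 rose, against 8.31% to 15.1% and 9.50% to 15.9% of tested genes. Without 1 library in turn, 16 to 18 fell, against 9.61% to 11.9% of tested genes (9.77% without Dor cKO replicate 2), and 2 to 4 rose, against 10.3% to 12.6%.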

How the data were processed

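Poly(A) RNA of mouse optic nerve was sequenced in 4 libraries, as 150 base pairs of paired reads per the labels' protocols. GRCm38 is the build in the submitters' processing notes, which also list RSEM 1.3.1, STAR 2.7.9a and Trimmomatic 0.36 with no roles. The RSEM tables that the authors deposited hold, per the file headers, expected counts and TPM, with lengths and posterior standard deviations. No annotation release or strand setting is given in the sources used here.

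Symbols came from GENCODE M21 (55141 of 55401 identifiers; the others held 0.00297% of counts). Expected counts were rounded, filtered with filterByExpr (minimum count 10, total 15), scaled by TMM and tested with edgeR 4.0.16 (quasi-likelihood, robust, group only), with Benjamini-Hochberg adjustment over 16751 genes. SE is the absolute log2 fold change over the square root of F. The 2 libraries of a group differed beyond counting noise (chi-square per degree of freedom 2.67 and 2.17). The alternatives are given in the closing section, with limma 3.58.1 (log2 of TPM plus a pseudocount of 1) and DESeq2 1.42.0 among the tools, and steps were tested on simulated data.

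The members and lists were chosen with earlier results of these data known. Named were all members, the targeted gene, called genes of the other sterol list and the most abundant and the lowest-p marker of each marker list; some genes this rule selects are not reported here. Cga, Pdgfra and Cspg4 were named after their values were seen. Promoter windows came from RefSeq. None was matched for Fdps, Fdft1, Sqle or Abcg1, and Stard4 was not searched.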

Additional observations from a re-analysis of the deposited data

How the results depend on the processing

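The counts of calls differed between tools and models, which change more than 1 choice at once. Over all genes, edgeR called 2248 lower and 2399 higher, DESeq2 1383 and 1539, limma on log2(TPM + 1) 722 and 666, and a likelihood ratio test that fixes the coefficient of biological variation at 0.1 called 891 and 703. For the 30 members the last 2 gave 8 and 7 lower and 0 and 0 higher, against 19 and 3. For the other sterol genes, limma gave 1 lower and 2 higher and the set variation 1 and 1, against 4 and 6. Trp53inp2 changed by -0.28 (adjusted p = 0.078) and -0.36 (adjusted p = 0.111) in these settings. RLE scaling, total count scaling, either other filter, the fit without the robust option and the removal of a trend on length and GC content kept each count within 1.5 times. Without 1 library in turn, 16 to 18 members fell and 2 to 4 rose, of 1670 to 2073 and 1782 to 2184 genes; 3 to 4 and 4 to 6 other sterol genes did, and Trp53inp2 lay between -0.38 and -0.33. Where 1 library was left, it was assumed to vary like the other group.

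The sign turned for Scap with the length and GC trend removed (-0.000999), for Soat1 with limma on TPM (-0.17), and without single libraries for Nr1h2 (-0.00767 to 0.15), Nr1h3 (-0.15 to 0.49) and Cyp46a1 (-0.38 to 0.0496); the cause was not tested. Of these, only Soat1 was called. With the replicate number as a replicate block, 20 members fell and 3 rose, of 2409 and 2562 genes, and 5 and 6 other sterol genes; only Stard4 changed its call among the members. Deviations of same-numbered libraries correlated at -0.0649 over 10589 genes, which shows no strong deviation shared by number. This value cannot show whether a weaker pairing exists. Depth limits Nr1h3 most, with as few as 75 counts in a library.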
